A study of Mus musculus with 6 samples.

Results

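Complex I of the respiratory chain, NADH:ubiquinone oxidoreductase, is described here at the level of its transcripts in mouse kidney. Its genes were taken by name: symbols that start with Nduf followed by a, b, c, s or v and a number were counted as subunits, and symbols that start with Ndufaf and a number as assembly factors. This gave 44 of the 40993 genes in the table, 37 subunits and 7 assembly factors. All 44 reached a mean of 0.5 FPKM over the 6 libraries and were tested, and no member spanned less than 300 bp in the table. FPKM divide fragments by the length of the transcript and the depth of the library, so levels can be compared between genes.

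The samples were whole kidneys of C57BL/6 mice, all 2 months old. In 3 of them the mice had a standard diet and in the other 3 an adenine-enriched diet. Excess adenine in the diet is widely used to injure the rodent kidney. The labels give no adenine dose, length of feeding or sex, and they do not say whether each sample is a separate animal, and p-values therefore rest on the spread among these 6 samples, which may be partly technical. They appear below as standard 1, 2 and 3 and adenine 1, 2 and 3.

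Complex I takes electrons from NADH, passes them to ubiquinone and pumps protons across the inner mitochondrial membrane. Its peripheral arm holds the N module, which oxidises NADH, and the Q module, which reduces ubiquinone; its membrane arm has a proximal and a distal part. Core subunits carry the redox centres and the proton channels, and accessory subunits surround and stabilise them. Assembly factors help to build the complex and are absent from the finished enzyme. The proximal tubule, which reabsorbs most of the filtrate, depends on mitochondrial respiration for its energy. The core subunits encoded by the mitochondrial genome were not analysed here.

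Transcripts of complex I were lower on the adenine-enriched diet. Of the 37 subunits 32 fell and none rose, at an adjusted p under 0.05 (limma on log2(FPKM + 1), Benjamini-Hochberg over 15431 genes), and of the 7 assembly factors 4 fell and none rose. By comparison 6.84% of all genes tested were called lower and 29.7% higher. The median log2 change was -0.69 over the subunits and -0.44 over the assembly factors, against 0.25 over all genes. The median subunit was 37.6% lower on adenine in mean FPKM. In 39 of the 44 members every adenine library lay below every standard library, which held for 11.8% of all genes. FPKM are relative to all fragments of a library, so these values do not give absolute amounts in the kidney. In whole tissue, fewer cells of a type and less RNA per cell cannot be told apart.

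Libraries were also rescaled so that the median gene did not shift (median of ratios), which moved the median of all genes from 0.25 to about 0.00. On that scale 35 subunits and 6 assembly factors fell and none rose, where 15.2% of all genes were called lower and 16.8% higher. The subunit median was then -0.99 and that of the assembly factors -0.73. With quantile normalization 28 subunits and 6 assembly factors fell and none rose, against 14.5% of all genes lower and 13.9% higher. With the replicate number as a block 32 subunits and 4 assembly factors fell and none rose, against 7.34% lower and 31.3% higher.

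Leaving out a single library changed the unscaled counts, by more than 1.5 times for the subunits without adenine 2 or any standard library, and for the assembly factors under every omission but that of adenine 3. The subunits called lower numbered 19, 19 and 17 without standard 1, 2 or 3, and 27, 14 and 36 without adenine 1, 2 or 3. The corresponding counts of assembly factors were 1, 2 and 1, then 2, 1 and 6. Calls over all genes moved with them, from 1.43% lower without adenine 2 to 10.4% lower without adenine 3. The subunit median stayed between -0.58 (without adenine 1) and -0.82 (without adenine 3). In 14 subunits and 1 assembly factor, Ndufaf2, the call was made under each of the 6 omissions.

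**Figure D1:**
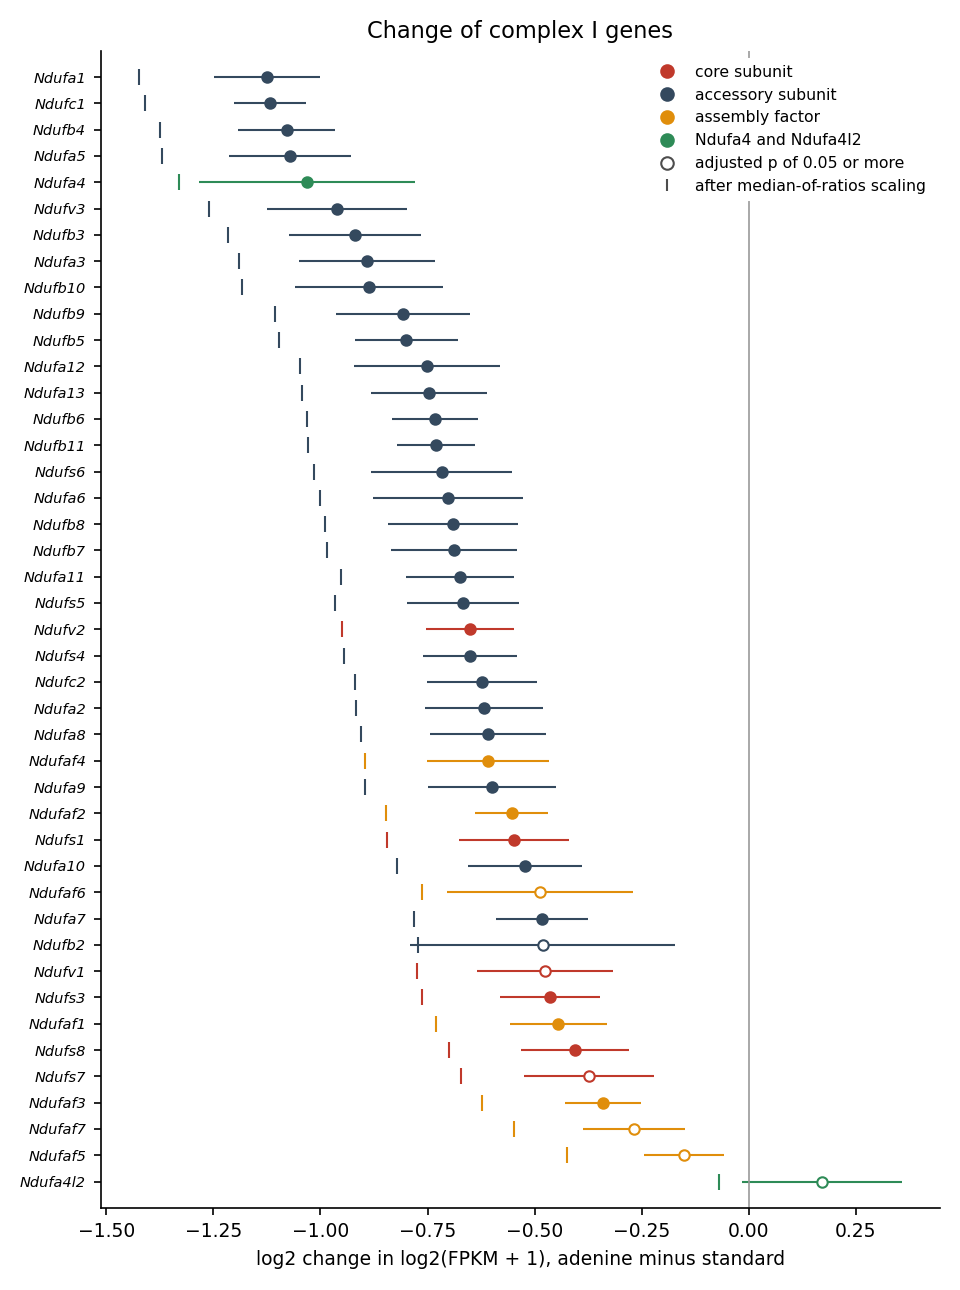
Log2 change (adenine minus standard, log2(FPKM + 1)) of the complex I genes reported singly or in groups here, with its standard error, as circles; open circles did not pass an adjusted p of 0.05, and vertical ticks give the change after median-of-ratios scaling. Core subunits sit toward the lower end of the plot, where changes are smaller, and Ndufa4l2 alone lies above 0, where its tick does not.

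Promoters were read from RefSeq (GRCm38.p6) as 250 bases before to 50 bases after the start, and 38 of the 44 members had an entry, 32 subunits and 6 assembly factors. Words known from factors that bind such promoters were searched on both strands: GCGCATGCG for NRF1, CCGGAAG for ETS factors such as GABP, TCAAGGTCA for estrogen-related receptors and AAGATGGC for YY1. A promoter with overlapping matches was counted once per word. The NRF1 word was in 2 of 32 subunit promoters (Ndufa8 and Ndufa11, 6.25%) and 2 of 6 assembly factor promoters (Ndufaf4, Ndufaf5), against 1.81% of 27025 promoters. The ETS word was in 4 of 32 subunit promoters (Ndufb6, Ndufb7, Ndufs3, Ndufs8) and 1 of 6 assembly factor promoters (Ndufaf1). The subunit share of 12.5% was near the 9.12% of all promoters. The YY1 word was in 7 of 32 subunit promoters (21.9%) and in 0 of 6 assembly factor promoters, against 2.88%. In none of these 7 did it lie wholly within the 250 bases before the start. The estrogen-related receptor word was in none of the 38 promoters, against 0.407%. The part of these words in the changes was not tested.

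The 150 bases before the start are shown for 3 members called lower that hold an NRF1 word (Ndufa11, Ndufaf4) or an ETS word (Ndufaf1) there, and whose window lies outside the gene as the deposited table places it. They run 5′ to 3′ in the direction of the gene, with the word in capitals. In Ndufa11 and Ndufaf4 matches on both strands overlap, which gives a longer stretch of capitals. The regions are chr17:56717612-56717761 (plus strand) for Ndufa11, chr4:24897933-24898082 (plus) for Ndufaf4 and chr2:119662835-119662984 (minus) for Ndufaf1.
Ndufa11: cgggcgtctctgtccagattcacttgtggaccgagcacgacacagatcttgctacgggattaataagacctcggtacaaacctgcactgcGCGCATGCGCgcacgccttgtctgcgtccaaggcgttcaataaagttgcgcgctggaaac
Ndufaf4: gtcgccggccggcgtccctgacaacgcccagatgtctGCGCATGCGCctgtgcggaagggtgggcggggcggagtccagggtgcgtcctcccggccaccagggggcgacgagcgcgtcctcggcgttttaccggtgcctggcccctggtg
Ndufaf1: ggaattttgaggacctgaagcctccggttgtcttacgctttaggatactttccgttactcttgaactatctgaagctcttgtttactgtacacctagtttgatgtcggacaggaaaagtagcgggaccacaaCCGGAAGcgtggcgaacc
These 3 genes changed by -0.67 ± 0.13 (Ndufa11), -0.61 ± 0.14 (Ndufaf4) and -0.44 ± 0.11 (Ndufaf1) on the log2 scale, all smaller in size than the subunit median of -0.69. The Ndufa11 call held under every omission of 1 library (adjusted p at most 0.0485), and those of Ndufaf4 and Ndufaf1 in 3 and 1 of 6.

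The core subunits in the nuclear genome include the whole redox path from NADH to ubiquinone. Ndufv1 binds the flavin that takes electrons from NADH. It read 171, 181 and 183 FPKM in standard 1 to 3 and 105, 125 and 160.0 FPKM in adenine 1 to 3. The groups did not overlap, with adenine 3 closest to the standard libraries. Its log2 change of -0.48 ± 0.16 (SE) missed the threshold (adjusted p = 0.0568); it passed with the replicate block (0.0445), with median-of-ratios scaling (0.0313) and without adenine 3 (0.00825).

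Ndufv2, an iron-sulphur protein of the N module, had 127, 123 and 131 FPKM on the standard diet and 74.4, 76.4 and 91.3 FPKM on adenine. All adenine libraries were low. The log2 change was -0.65 ± 0.10 (adjusted p = 0.00767), with an adjusted p of at most 0.0411 under any omission of 1 library. Ndufs1, the large subunit that holds several iron-sulphur clusters, had 141, 154 and 166 FPKM on the standard diet and 90.5, 106 and 119 FPKM on adenine. No adenine library reached the standard ones. Its log2 change was -0.55 ± 0.13 (adjusted p = 0.0207), and the call was lost without standard 2 (0.0660), standard 3 (0.0703) or adenine 2 (0.0719).

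In the Q module, Ndufs7 holds the last iron-sulphur cluster before ubiquinone. It had 124, 120.5 and 106 FPKM in standard 1 to 3 and 76.4, 85.5 and 111 FPKM in adenine 1 to 3. Adenine 3 exceeded standard 3, while the other 2 adenine libraries lay below the standard range. Its log2 change was -0.37 ± 0.15 and did not pass the threshold (adjusted p = 0.0939). It passed with median-of-ratios scaling (0.0347) and without adenine 3 (0.0137).

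Ndufs3 and Ndufs8 also belong to the core of the Q module. Ndufs3 had 152, 141 and 153 FPKM on the standard diet and 94.4, 106 and 123 FPKM on adenine. Ndufs8, an iron-sulphur protein, had 57.8, 51.0 and 52.0 FPKM on the standard diet and 34.8, 39.4 and 47.2 FPKM on adenine. In both genes the diets did not overlap and adenine 3 was the highest of its group. Ndufs3 fell by 0.46 ± 0.12 on the log2 scale (adjusted p = 0.0254) and Ndufs8 by 0.41 ± 0.13 (adjusted p = 0.0459). The Ndufs8 call was lost with the replicate block (0.0694), without the variance trend (0.0613) and without the filter on low genes (0.0643). The Ndufs3 call was lost with quantile normalization (0.0577). Both calls held without adenine 3 (0.00802 and 0.0119) and were lost under each of the other omissions, where adjusted p lay between 0.0510 and 0.0877 for Ndufs3 and between 0.0916 and 0.131 for Ndufs8.

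The largest falls in complex I proper were in 4 accessory subunits. In the positions of the deposited table (mm10, GRCm38) these are Ndufa1 at chrX:37187588-37191163, Ndufc1 at chr3:51404677-51408988, Ndufb4 at chr16:37647170-37654453 and Ndufa5 at chr6:24518666-24528013, all on the minus strand. Ndufa1, a small subunit of the proximal membrane arm, had 495, 487 and 502 FPKM on the standard diet and 207, 216 and 259 FPKM on adenine. Ndufc1, a small membrane subunit, had 64.8, 62.2 and 59.4 FPKM on the standard diet and 26.5, 27.8 and 30.1 FPKM on adenine. Each adenine library was far below each standard library in both genes, and the libraries of a diet lay close together. The log2 changes were -1.12 ± 0.12 for Ndufa1 (adjusted p = 0.00419) and -1.12 ± 0.08 for Ndufc1 (adjusted p = 0.00296).

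Ndufb4 belongs to the distal membrane arm. It had 123, 118 and 118 FPKM in standard 1 to 3 and 48.5, 56.9 and 63.8 FPKM in adenine 1 to 3. Ndufa5, an accessory subunit of the Q module, had 201, 168 and 168 FPKM in the former and 79.5, 75.01 and 101 FPKM in the latter. Neither gene had an adenine library near the standard range. Ndufb4 fell by 1.08 ± 0.11 on the log2 scale (adjusted p = 0.00405) and Ndufa5 by 1.07 ± 0.14 (adjusted p = 0.00566). Calls for Ndufa1, Ndufc1, Ndufb4 and Ndufa5 held under every omission of 1 library, with adjusted p of at most 0.0331. A processed pseudogene, Ndufb4c, shares 37.0% of the 50-base words of the longest coding Ndufb4 transcript, so reads of the pair could have been split or exchanged.

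Ndufa4 carries a complex I name but is now known as a subunit of cytochrome c oxidase, complex IV. It lies at chr6:11900373-11907446 on the minus strand. It was the most abundant member, with 1420.0, 1388 and 1670.0 FPKM in standard 1 to 3 and 552, 714 and 976 FPKM in adenine 1 to 3. The adenine libraries differed widely among themselves but none reached the standard ones. Its log2 change was -1.03 ± 0.25 (adjusted p = 0.0232). The call was lost with quantile normalization (0.101), without the filter (0.0578), without any of the standard libraries (0.0682 to 0.0825) and without adenine 2 (0.0913). Its share of the summed subunit FPKM was 18.5%, 18.6% and 20.8% on the standard diet and 14.4%, 16.6% and 17.8% on adenine.

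Ndufa4l2 is a paralogue of Ndufa4 known as a gene induced by low oxygen. It was the least abundant member, with 4.29, 4.75 and 2.82 FPKM on the standard diet and 5.12, 4.27 and 4.13 FPKM on adenine. The diets overlapped. Its log2 change of 0.17 ± 0.19 did not pass (adjusted p = 0.486), and the sign turned with median-of-ratios scaling (-0.07), with quantile normalization (-0.32) and without standard 3 (-0.01). Relative to Ndufa4 in the same library, its log2 ratio was -8.37, -8.19 and -9.21 on the standard diet and -6.75, -7.39 and -7.89 on adenine, and the diets did not overlap. Ndufa4l2 overlaps Shmt2 on the opposite strand by 30 bp, and the sources used here do not say that the counting used strand.

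Without Ndufa4 and Ndufa4l2, 31 of 35 subunits fell. Of the 7 core subunits 4 fell, with a median log2 change of -0.46, and of the 28 accessory subunits 27 fell, with a median of -0.72, where 6.84% of all genes were called lower. The contrast in counts depended on the setting. With median-of-ratios scaling 7 of 7 core and 27 of 28 accessory subunits fell, and with quantile normalization 3 and 25. Without adenine 3 all 7 and all 28 fell, and without adenine 2 only 1 and 13. In the same order, these settings called 15.2%, 14.5%, 10.4% and 1.43% of all genes lower. Unscaled, Ndufb2 of the distal membrane arm was the accessory subunit that was not called. It had 44.1, 53.2 and 39.96 FPKM on the standard diet and 23.6, 26.1 and 54.2 FPKM on adenine. Adenine 3 was the highest of all 6 libraries, and the other 2 adenine libraries were below every standard library. The log2 change of Ndufb2 was -0.48 ± 0.31 (adjusted p = 0.250), and it passed without adenine 3 (0.00811).

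By position in the enzyme, all 8 proximal membrane arm subunits fell, with a median log2 change of -0.71, where 6.84% of all genes were called lower. In the distal membrane arm 9 of 10 fell, with a median of -0.77. In the N module 7 of 8 fell, with a median of -0.65. In the Q module 3 of 5 fell, with a median of -0.41. Ndufa5 at -1.07 stood far from its other members, which are all core in the list used here. Position and core class therefore cannot be told apart in this module as listed. With median-of-ratios scaling all 5 Q module subunits fell, and 2 with quantile normalization or the replicate block. The proximal arm, distal arm and N module had 8, 9 and 8 falls with that scaling or the block, and 7, 8 and 7 with quantile normalization. Of all genes, 15.2% were called lower with that scaling, 7.34% with the block and 14.5% with quantile normalization. The remaining 4 accessory subunits, Ndufa6, Ndufa7, Ndufa9 and Ndufa11, were given no module here, and all fell, with a median of -0.64. The module counts and medians rest on this choice.

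Other N module subunits ranged from a log2 change of -0.96 for Ndufv3, a peripheral subunit next to the flavin site, to -0.62 for Ndufa2. Ndufs4, whose loss in mice gives a model of Leigh syndrome, changed by -0.65 ± 0.11 (adjusted p = 0.00893). In the distal membrane arm the values ran from -1.08 for Ndufb4 to -0.48 for Ndufb2, with Ndufb3 at -0.92 and Ndufb10 at -0.89. In the proximal membrane arm Ndufa10 had the smallest change (-0.52) and Ndufa1 the largest, with Ndufa3 at -0.89. Ndufa13, also known as Grim-19, changed by -0.75 ± 0.14 (adjusted p = 0.0106). The calls for Ndufv3, Ndufs4, Ndufb3, Ndufa3 and Ndufa13 held under every omission of 1 library (adjusted p at most 0.0485). That of Ndufb10 held in 5 of the 6 and those of Ndufa2 and Ndufa10 in 2 and 1. The Ndufa10 and Ndufb8 calls were lost with quantile normalization (0.0554 and 0.0516).

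**Figure D2:**
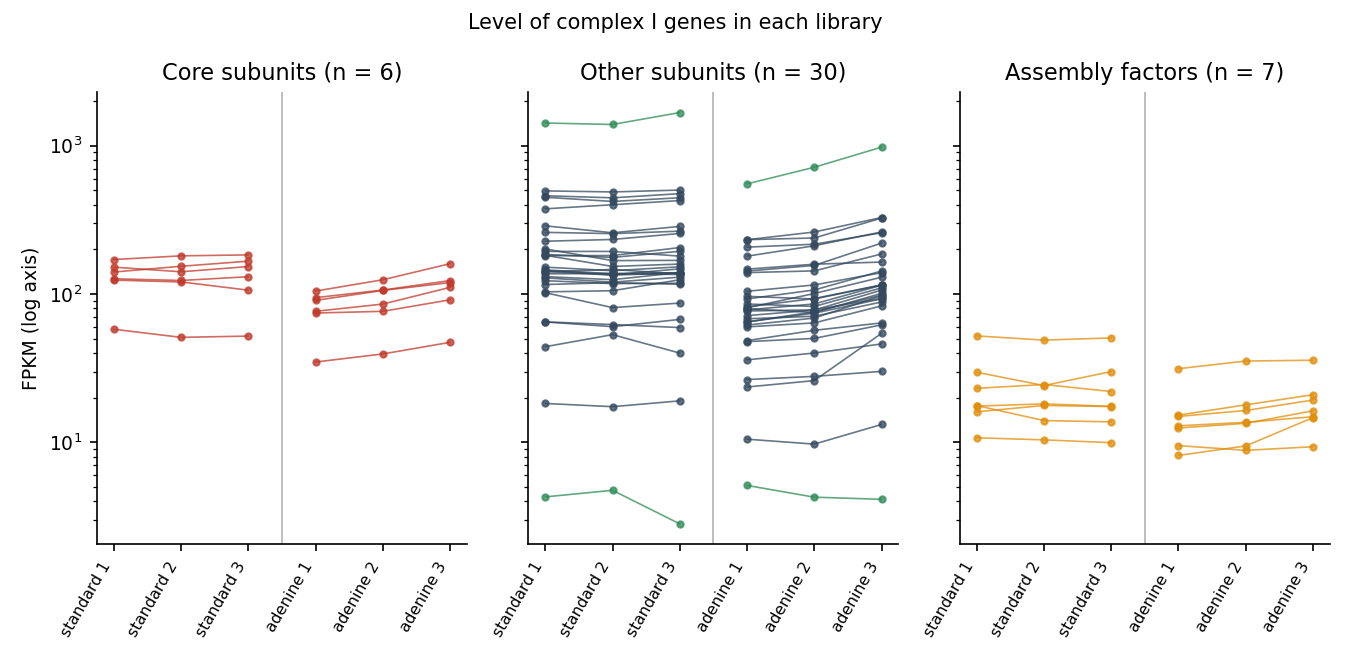
FPKM (log axis) of these genes in each library, in 3 panels for core subunits, other subunits with Ndufa4 and Ndufa4l2 in green, and assembly factors; lines join the values of 1 gene within a diet and carry no order. Levels on the standard diet form flat lines, and on adenine nearly every gene is lowest in adenine 1 and highest in adenine 3.

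Ratios between gene groups within a library do not depend on how the library is scaled. The geometric mean of the core subunits was 88.3%, 90.7% and 89.8% of that of the accessory subunits in standard 1 to 3. In adenine 1 to 3 it was 109%, 115% and 108%. Core subunits were thus below the accessory subunits in each standard library and above them in each adenine library. The log2 ratio differed by 0.30 between the diets, with means of -0.16 ± 0.02 (SD, n = 3) on the standard diet and 0.14 ± 0.05 (SD, n = 3) on adenine. The core median was also the smaller change with quantile normalization (-0.36 against -0.67) and with median-of-ratios scaling (-0.76 against -1.02). It stayed so under all 6 omissions of 1 library, by 0.23 to 0.30.

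Transcript length differed between these classes. Over the 35 subunits the log2 change correlated with the log2 of the median length of annotated coding transcripts at Pearson's r = 0.42 and Spearman's rho = 0.41. With the longest coding transcript instead, r was 0.34 and rho 0.33. These points share the same 6 libraries. Of the 18 subunits with a median length up to 704 bp only 1 is core, against 6 of the 17 longer ones. That 1 is Ndufs1, whose coding transcripts have a median of 651 bp but reach 2661 bp. The split thus depends on which annotated transcripts are counted. Among the accessory subunits alone the median log2 change was -0.72 for the 17 shorter and -0.73 for the 11 longer ones. For the level on the standard diet r was -0.22.

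Assembly factors were less abundant than subunits, at 10.4 to 50.5 FPKM on the standard diet. Ndufaf2 binds the nascent complex in place of its paralogue Ndufa12, an N module subunit. It had 52.2, 48.9 and 50.5 FPKM in standard 1 to 3 and 31.4, 35.3 and 35.8 FPKM in adenine 1 to 3. The diets were well apart and the adenine libraries close to each other. The log2 change was -0.55 ± 0.08 (adjusted p = 0.00747), with an adjusted p of at most 0.0362 when 1 library was left out. Ndufa12 changed by -0.75 ± 0.17 (adjusted p = 0.0189), but was called in only 2 of the 6 omissions, without adenine 1 or adenine 3. The log2 ratio of Ndufaf2 over Ndufa12 was -1.30, -1.30 and -1.36 on the standard diet and -0.98, -0.96 and -1.44 on adenine, and overlapped.

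Ndufaf3 and Ndufaf4 act together on the Q module. Ndufaf3 had 17.6, 18.2 and 17.5 FPKM on the standard diet and 12.9, 13.6 and 14.9 FPKM on adenine. Ndufaf4 had 29.7, 24.1 and 30.0 FPKM on the standard diet and 15.2, 17.9 and 20.9 FPKM on adenine. In both genes every adenine library was below the standard ones. Ndufaf3 fell by 0.34 ± 0.09 on the log2 scale (adjusted p = 0.0286) and Ndufaf4 by 0.61 ± 0.14 (adjusted p = 0.0210). The Ndufaf3 call held only without adenine 3 (0.0170; 0.0707 to 0.101 under the other omissions). The Ndufaf4 call was lost without standard 1 (0.0712), standard 3 (0.0716) or adenine 2 (0.0724).

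Ndufaf1 is part of a membrane assembly complex with Acad9, Ecsit and Tmem126b. It had 23.1, 24.5 and 22.0 FPKM on the standard diet and 14.9, 16.4 and 19.3 FPKM on adenine. The diets did not overlap. Its log2 change was -0.44 ± 0.11 (adjusted p = 0.0262), called without adenine 3 (0.00939) and under no other omission (0.0586 to 0.0916). Of its partners, Tmem126b fell by 0.38 ± 0.11 on the log2 scale (adjusted p = 0.0362), a call that held only without adenine 3 (0.0236). Acad9 had a log2 change of -0.57 ± 0.18 (adjusted p = 0.0503) and Ecsit of -0.45 ± 0.19 (adjusted p = 0.106); both passed without adenine 3 (0.00388 and 0.0123).

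Ndufaf5, Ndufaf6 and Ndufaf7 did not pass. Ndufaf5, which hydroxylates an arginine of Ndufs7, had 10.7, 10.4 and 9.94 FPKM on the standard diet and 9.50, 8.83 and 9.33 FPKM on adenine. Ndufaf7, an arginine methyltransferase that acts early in assembly, had 16.1, 17.7 and 17.4 FPKM on the standard diet and 12.5, 13.4 and 16.3 FPKM on adenine. The Ndufaf5 groups were close but separate, and in Ndufaf7 adenine 3 exceeded standard 1. Log2 changes were -0.15 ± 0.09 for Ndufaf5 (adjusted p = 0.230) and -0.27 ± 0.12 for Ndufaf7 (adjusted p = 0.116). Both passed as falls on the median-of-ratios scale (0.0168 and 0.0332) and after quantile normalization (0.0155 and 0.0411), and Ndufaf7 also without adenine 3 (0.0268).

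Ndufaf6, a factor of early assembly, had 17.7, 14.0 and 13.7 FPKM on the standard diet and 8.16, 9.45 and 14.7 FPKM on adenine. Adenine 3 lay within the standard range while the other 2 adenine libraries were below it. The log2 change was -0.49 ± 0.22 (adjusted p = 0.117), and it passed without adenine 3 (0.0150).

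Set against the subunits of the same library, assembly factors stood higher on adenine. Their geometric mean was 14.3%, 14.1% and 13.7% of that of the 35 subunits in standard 1 to 3 and 17.5%, 17.5% and 16.1% in adenine 1 to 3. The diets did not overlap, and the log2 ratio differed by 0.28 (means -2.83 ± 0.04 and -2.55 ± 0.07, SD, n = 3). The difference between the median log2 changes was 0.24 unscaled and 0.26 with median-of-ratios scaling, but it turned to -0.07 with quantile normalization, where assembly factors had a median of -0.68 and subunits of -0.61. The cause of this turn was not tested. All genes at the level of the assembly factors, 9.79 to 42.3 FPKM, had a median log2 change of 0.22 unscaled and -0.05 with quantile normalization. Those at the level of the subunits had 0.12 and -0.05.

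**Figure D3:**
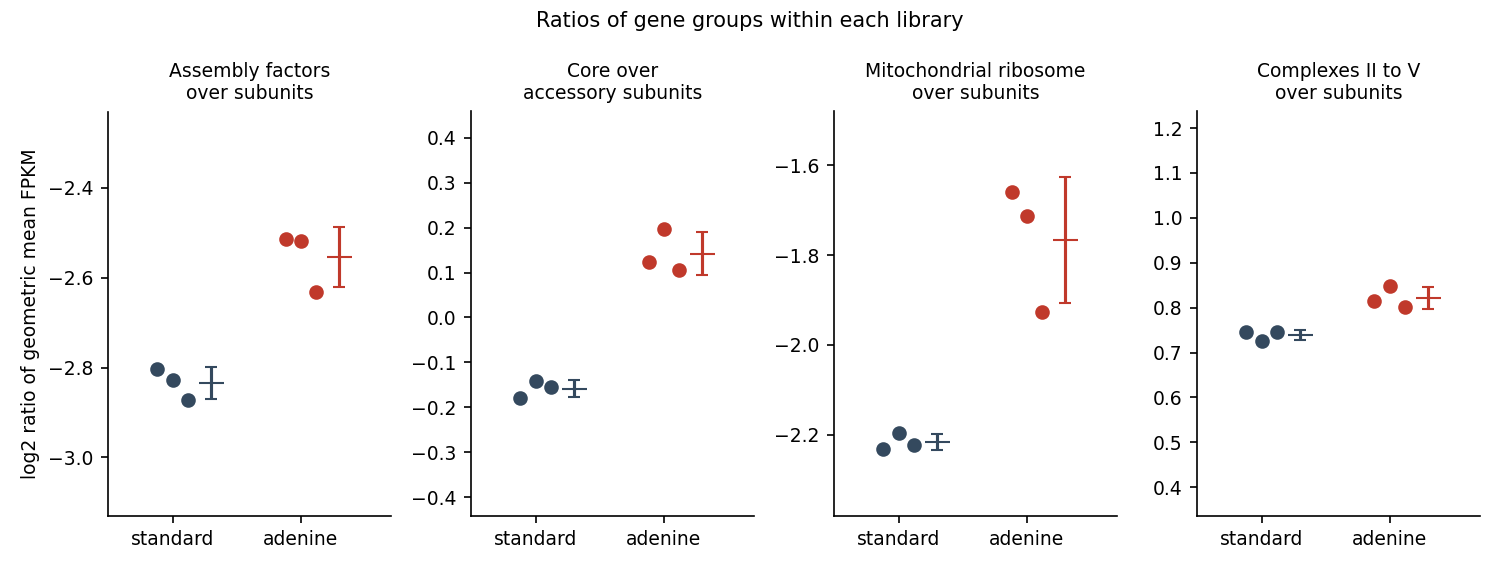
Log2 ratio of the geometric mean FPKM of 2 gene groups within each library, as points, with the mean and SD of 3 libraries beside them; all 4 axes span the same height, and none starts at 0. Assembly factors over subunits, core over accessory subunits and the mitochondrial ribosome over subunits are 0.28 to 0.45 higher in the adenine libraries without overlap, and complexes II to V over subunits 0.08 higher.

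Other proteins that assist complex I were read from a list of 14 genes without the Ndufaf name. Of these 6 fell and none rose, where 6.84% of all genes were called lower: Tmem126a, Lyrm2, Aifm1, Chchd4, Tmem70 and Tmem126b. Tmem126a had 57.5, 59.7 and 65.4 FPKM on the standard diet and 35.6, 39.1 and 40.1 FPKM on adenine. Lyrm2, a factor of N module assembly, had 75.1, 74.2 and 67.0 FPKM on the standard diet and 46.2, 49.6 and 48.5 FPKM on adenine. Both genes were clearly lower in every adenine library. Log2 changes were -0.65 ± 0.09 for Tmem126a (adjusted p = 0.00608) and -0.57 ± 0.08 for Lyrm2 (adjusted p = 0.00647), and these calls held under every omission of 1 library. Aifm1, a flavoprotein that helps to import respiratory chain proteins, changed by -0.54 ± 0.14 (adjusted p = 0.0274), called in 2 of the 6 omissions. The list's count ranged from 2 without standard 2 to 10 without adenine 3. Foxred1 and Timmdc1 had log2 changes of -0.04 and -0.06 and were not called.

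Ndufab1, the mitochondrial acyl carrier protein that sits in both arms of complex I, falls outside the name rule. It had 107, 81.2 and 79.0 FPKM on the standard diet and 58.1, 54.1 and 54.6 FPKM on adenine. The adenine libraries were nearly equal and all lower. Its log2 change was -0.66 ± 0.13 (adjusted p = 0.0131), and the call was lost without adenine 2 (0.0561).

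Genes of the other respiratory complexes fell too. In complex II 3 of 4 tested genes fell, in complex III 7 of 9, in complex IV 7 of 14 and in complex V 13 of 17, with median log2 changes of -0.48, -0.73, -0.61 and -0.69, and none rose. Over all genes 6.84% were called lower. Leaving out 1 library gave 0 to 4, 3 to 9, 3 to 10 and 6 to 16 calls; the fewest came without adenine 2 (for complex II also without standard 1 or 2, for complex III also without standard 2 or 3) and the most without adenine 3. Genes of the mitochondrial ribosome, which translates the mitochondrially encoded subunits, fell in 21 of 78 cases, with a median of -0.25 (4 without adenine 2, 42 without adenine 3). With median-of-ratios scaling 53 of the 78 fell (median -0.53), and with quantile normalization 37 (median -0.44). The share of all genes called lower also grew, to 15.2% and 14.5%. In complexes II to V quantile normalization left 1, 4, 4 and 11 calls and median-of-ratios scaling gave 4, 9, 7 and 14. The log2 ratio of the mitochondrial ribosome over the subunits was -2.23, -2.20 and -2.22 in standard 1 to 3 and -1.66, -1.71 and -1.93 in adenine 1 to 3. The ribosomal genes stood higher against the subunits in every adenine library. The same ratio for complexes II to V differed by only 0.08, with means of 0.74 ± 0.01 and 0.82 ± 0.02 (SD, n = 3), and without overlap.

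Of 14 regulators of mitochondrial genes, 2 fell and 3 rose unscaled, where 6.84% of all genes were called lower and 29.7% higher. With median-of-ratios scaling 7 fell and 1 rose, against 15.2% of all genes lower and 16.8% higher. With quantile normalization 6 fell and 1 rose, against 14.5% lower and 13.9% higher. The balance over all genes thus moved in the same direction with the scaling. The estrogen-related receptors Esrra and Esrrg, nuclear receptors that activate respiratory chain genes, had log2 changes of -0.41 ± 0.11 (adjusted p = 0.0309) and -0.50 ± 0.12 (adjusted p = 0.0234). The coactivator gene Pprc1 had 5.26, 5.45 and 5.65 FPKM on the standard diet and 11.6, 13.3 and 9.05 FPKM on adenine. All adenine libraries were higher. It rose by 0.92 ± 0.15 on the log2 scale (adjusted p = 0.00822), held with median-of-ratios scaling (0.65, adjusted p = 0.0170) and held under every omission. Nrf1 (0.59 ± 0.14, adjusted p = 0.0221) and Gabpb1 (0.45 ± 0.13, adjusted p = 0.0336) rose unscaled and were not called with median-of-ratios scaling (adjusted p = 0.0920 and 0.190). Without single libraries Esrra, Nrf1 and Gabpb1 were called only when adenine 3 was left out, and Esrrg in 2 of 6 omissions, with adjusted p up to 0.105, 0.0739, 0.120 and 0.0767. Ppargc1a (-0.39 ± 0.19, adjusted p = 0.151) and Tfam (-0.29 ± 0.14, adjusted p = 0.15) did not pass.

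The adenine libraries kept the same order in nearly all members. Adenine 3 was the highest adenine library in 42 of the 44 genes and adenine 1 the lowest in 38. Over all genes tested adenine 3 was highest in 25.3% and adenine 1 lowest in 24.0%, and among the 1056 genes called lower the shares were 82.3% and 76.4%. The geometric mean of the subunits was 148, 143 and 148 FPKM in standard 1 to 3 and 78.1, 85.0 and 108 FPKM in adenine 1 to 3. The standard libraries were thus nearly equal and the adenine libraries spread. The coefficient of variation between libraries had a median over the subunits of 4.51% on the standard diet and 16.5% on adenine, against 12.5% and 15.1% over all genes. It was larger on adenine in 42 of the 44 members.

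Markers of several cell types differed between the diets as well, where 6.84% of all genes were called lower and 29.7% higher. Summed proximal tubule markers (13 genes, 8 called lower, none higher) were 4903, 5855 and 6241 FPKM in standard 1 to 3 and 1788, 2772 and 4053 FPKM in adenine 1 to 3. Summed leukocyte markers (11 genes, 10 higher) were 294 to 348 FPKM on the standard diet and 3389, 1913 and 1535 FPKM in adenine 1 to 3. Fibroblast markers (9 genes, all higher) summed to 160.1 to 209.5 FPKM on the standard diet and 1583, 1269 and 843 FPKM in adenine 1 to 3. Adenine 1 thus had the lowest subunits and proximal tubule markers and the highest leukocyte and fibroblast markers, and adenine 3 the reverse. The proximal tubule markers called lower numbered 2 without standard 2, 11 without adenine 3 and 5 with quantile normalization. In the same order, 2.27%, 10.4% and 14.5% of all genes were called lower. The part of these markers in the subunit result was not tested.

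Within a library the log2 ratio of the proximal tubule markers over the subunits was 0.43, 0.79 and 0.91 on the standard diet and 0.17, 0.56 and 0.68 on adenine, and overlapped. For the 6 markers of the thick ascending limb, another segment rich in mitochondria, the log2 ratios over the subunits were 0.78, 0.85 and 0.74 on the standard diet and 1.06, 1.18 and 1.12 on adenine, without overlap. Of these markers 3 fell, Egf (log2 change -1.29), Cldn10 (-0.90) and Slc12a1 (-0.72), and 1 rose, Cldn16 (0.43). Umod (0.39) and Kcnj1 (-0.24) were not called. The ratio thus joins genes that moved in opposite directions. There were 0 falls without adenine 2, and 0 rises with median-of-ratios scaling. In the collecting duct list 2 of 7 markers fell (5 without standard 3, 1 without standard 1), where 6.84% of all genes were called lower. All 5 podocyte markers rose, where 29.7% of all genes were called higher. That podocyte count was 3 without standard 1, 3 with median-of-ratios scaling (16.8% of all genes higher) and 2 with quantile normalization (13.9%).

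Lists of other tissues were read in the same way. Brown fat markers summed to 71.7 to 80.6 FPKM on the standard diet and 39.1 to 64.7 FPKM on adenine. Of these, 0 of 5 tested were called (1 lower without adenine 3). Most of the sum came from Cox7a1 and Ppargc1a. Cox8b had 3.82, 10.9 and 0 FPKM in standard 1 to 3 and 1.77, 10.6 and 0 FPKM in adenine 1 to 3. Cidea and Ucp1 were also at most 0.217 FPKM in standard 3 and adenine 3. Ucp1 was low in adenine 1 as well (0.115 FPKM). The part of brown fat in the subunit result was not tested. Skeletal muscle markers summed to at most 0.735 FPKM, with Myh4 at 0 in all libraries, and adrenal cortex markers to at most 1.89 FPKM, with Cyp11b2 at 0. White fat markers summed to 9.99, 16.6 and 0.187 FPKM in standard 1 to 3 and 17.6, 27.1 and 0 FPKM in adenine 1 to 3. None was called, and these markers were nearly absent from standard 3 and adenine 3. Blood markers summed to 8.97 to 141 FPKM, with none of 5 called. Of the liver list 1 of 3 tested genes rose, and its sum of 260.4 to 724 FPKM came mostly from Cyp2e1, which the kidney also expresses.

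**Figure D4:**
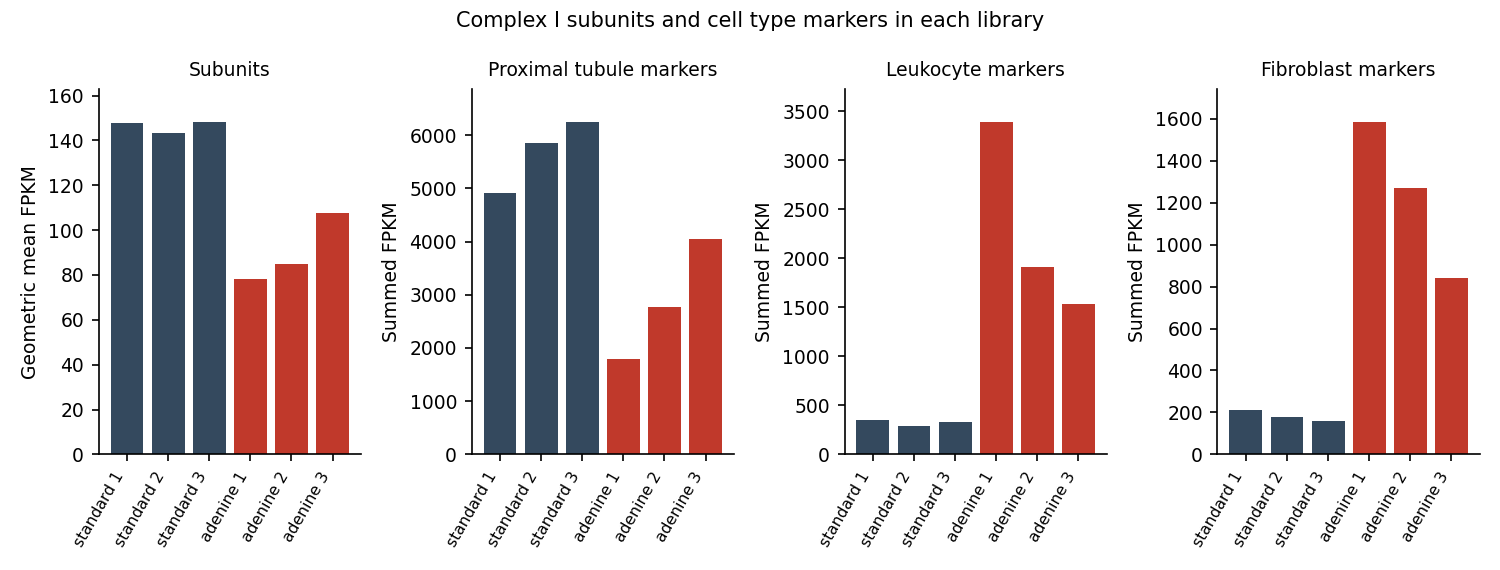
Geometric mean FPKM of 35 complex I subunits and summed FPKM of proximal tubule, leukocyte and fibroblast markers in each library, as bars from 0; standard libraries are dark and adenine libraries red. Among the adenine libraries, subunits and proximal tubule markers are lowest in adenine 1 and highest in adenine 3, and leukocyte and fibroblast markers run the other way.

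Some members share sequence with other genes, and reads could have been split between them. Of the 44 members 7 share at least 20% of the 50-base words of their longest coding transcript with transcripts of other genes: Ndufs3 (39.7%), Ndufb4, Ndufb6 (34.1%), Ndufs5 (31.1%), Ndufa13 (28.5%), Ndufa12 (26.2%) and Ndufb9 (23.4%). For Ndufs3, Ndufb4, Ndufs5 and Ndufa12 the sharer is a processed pseudogene. By position 13 members overlap another gene, 10 of them on the opposite strand, and in 3 the other gene's mean reached 10% of the member's: Shmt2 for Ndufa4l2, Adck2 and Braf for Ndufb2, and Eef1b2 for Ndufs1. The values of these genes are therefore less certain than those of the rest.

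Estimated depth was 17.2 to 20.3 M fragments in the standard libraries and 17.5 to 23.5 M in the adenine libraries. A count of 3 fragments for a transcript of 1 kb equals 0.160 to 0.217 FPKM, so every member lay well above the limit of detection. In standard 2 genes spanning less than 300 bp held 90.1% of all FPKM, and in the other libraries 11.2% to 26.3%. In the 37 subunits standard 2 was the lowest standard library in 21, and without it the subunit median was -0.72.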

How the data were processed

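Total RNA of whole kidneys was made into libraries with the TruSeq RNA kit and sequenced as paired 100 bp reads, per the labels' protocols. The submitters' processing notes list bcl2fastq 2.0, TopHat and Cufflinks 2.1.1, with mm10 and GRCm38 as builds. Which TopHat version and which annotation were used is not given in the sources used here. FPKM per gene are the unit of the table the authors deposited, and its column names carry the diet and replicate number that map them to samples; 6 value columns of another table were not used. Of low values 65.4% to 73.4% came within 0.15 of whole fragments, too few for a count test, and depths are estimates with a nominal fragment of 200 bp. Limits from them cover counting error only.

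Diets were compared with limma 3.58.1 (R 4.3.3; two-sided, variance trend) on log2(FPKM + 1) in the 15431 genes whose mean reached 0.5 FPKM, with Benjamini-Hochberg adjustment over all of them and calls at an adjusted p under 0.05. This scale makes the changes of low genes look smaller. The members and all gene lists were chosen with earlier results of these data known. Values per sample are given for the nuclear core subunits in the list (results for an item in it are not reported here, and the plots of single genes leave it out), the subunits with the 5 largest falls and the 5 at the other end, all Ndufaf genes, Ndufa4 and Ndufa4l2; Ndufb2, Ndufab1, Tmem126a, Lyrm2 and Pprc1 were added for contrast or by list. Lists are described by counts and medians. Alternatives were median-of-ratios scaling, quantile normalization, pseudocounts of 0.1 and 0.5, no filter, a mean of at least 5 FPKM, no variance trend, the replicate block and the omission of each library. On data simulated with the spread of all genes tested, changed genes that the same code called had the right direction. The run was set to stop otherwise. Noise was drawn separately for each gene, without the order that the adenine libraries kept over the members. The changes put in were larger than those of most members. That check therefore does not tell how often changes of the members' size are missed. Words in promoters were counted in RefSeq GRCm38.p6 sequences, and transcript lengths and shared words came from GENCODE M21.

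Samples with equal replicate numbers deviated from their diet's mean together (r = 0.257, 0.143 and 0.181), and others less so (r = -0.187 to 0.0376). All same-number values exceed 0.1, and the numbers were used as the block in an alternative fit, while the main fit has no block. Deviations from a diet's mean sum to 0 within the diet, so positive same-number values push the others down. A pairing is therefore not established: it comes from the data, as no label states it.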

Additional observations from a re-analysis of the deposited data

How the results depend on the processing

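With the replicate block, 32 subunits and 4 assembly factors were called lower and none higher, as without it; the block took the call of Ndufs8 (adjusted p = 0.0694), gave Ndufv1 its call (0.0445) and changed no other call among the 44 members. Median-of-ratios scaling, alone or with the replicate block, moved the median log2 change of the subunits to -0.985 and of the assembly factors to -0.729; quantile normalization gave -0.676 for the assembly factors and turned their difference from the subunits to -0.0708. Ndufa4l2 turned to -0.0706 with median-of-ratios scaling, with or without the block, and to -0.317 with quantile normalization; with 1 library left out it ranged from -0.00629 (without standard 3) to 0.288. No setting called a member higher. When 1 library was left out, 14 to 36 subunits and 1 to 6 assembly factors were called lower, the difference between the medians lay between 0.162 and 0.315, and 2053 to 7078 genes were called in all. The pseudocounts changed no member's call, no filter took 2 calls, no variance trend took 1, and the stricter filter took none of the 43 members it kept. Without Ndufa4 and Ndufa4l2, 31 subunits were called lower and the median stayed at -0.69. No row of a member was shorter than 300 bp, so leaving such rows out was not run. With 3 samples a diet, calls that rest on single libraries are not firm, and no counts were available to weigh depth.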
